A study of Mus musculus with 6 samples.

Results

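The comparison set CD8+ T cells lacking Dusp2 (Dusp2KO) against wild-type (WT) cells within the sorted CD44hi fraction. The 4 libraries that carry the CD44hi label in their titles were taken, 2 per genotype, of 6 libraries in the series, and the CD44lo libraries were left out. Primary CD8+ T cells from lymph nodes were cultured for 18 h in wells coated with anti-CD3 (1 µg/mL). The medium held anti-CD28 (1 µg/mL) and a pair of cytokines, IL-4 at 20 ng/mL with 50 ng/mL of IFN-α, a mixture given by the series as an inducer of virtual memory T cells. Both genotypes received the same mixture. The highest CD44 fraction was sorted and its total RNA was sequenced in bulk. The Dusp2KO group is labelled Dusp2-/-, with no further allele named, and neither the strain nor the age and sex of the mice is given in the sources used here. The treatment text of the labels names Cd4-Cre Rpa1fl/fl mice in place of Dusp2-/- mice. Whether replicates are different mice or culture wells is not stated, and the p-values therefore measure only the spread between these libraries, which may be technical.

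DUSP2 is a dual-specificity phosphatase of the nucleus that removes phosphate from the threonine and tyrosine of active MAP kinases. Its gene is induced within hours in stimulated lymphocytes, together with other phosphatases and adaptors that limit the same cascade. Virtual memory CD8+ T cells carry a memory phenotype, with high CD44, without having met their antigen. They answer cytokines and receptor signals quickly with IFN-γ, chemokines and granule proteins.

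Dusp2 itself was listed at 0 and 0.0283 FPKM in Dusp2KO replicates 1 and 2, and at 82.6 and 83.9 FPKM in the WT libraries (FPKM counts fragments relative to gene length and library depth). These values came from 0 and 3 reads in the Dusp2KO libraries against 7197 and 9518 in WT, which goes with the genotype labels. Rpa1, which encodes a subunit of the single-strand DNA binding complex named in the treatment text, stood at 41.3 and 41.4 FPKM in Dusp2KO and at 33.7 and 35.2 in WT, so the Dusp2KO libraries did not lack it. Its difference was called (log2 difference 0.26, adjusted p = 0.026), but not without Dusp2KO replicate 1 (adjusted p = 0.18) or 2 (adjusted p = 0.19). Cd44, the sort marker, stood at 65.4 and 66.3 FPKM in Dusp2KO and at 79.9 and 65.3 in WT, and the groups overlapped (adjusted p = 0.36). Cd8a, a chain of the CD8 coreceptor, ranged from 246 to 302 FPKM over the 4 libraries. Of 8 tested CD8 T cell markers, 1 was called higher in Dusp2KO and 3 lower, among the latter Cd3e.

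Recovered reads per library ran from 42816073 to 55830235. The Dusp2KO replicates differed by a median of 0.055 on the log2 scale over 6461 genes averaging 5 FPKM or more, and the WT replicates by 0.104. Of the defining markers of other cells, Lyz2, of myeloid cells, was listed at 0 in all 4 libraries, Cd4 reached 0.0228 FPKM and Cd79a, of B cells, 0.379 FPKM. Summed levels were 66.8 to 70.2 FPKM for NK cell markers, nearly all of it Eomes, and 33.7 to 40.4 for macrophage and monocyte markers, mostly Ctss, with no member called in either list. Dendritic cell markers summed to 328 to 355 FPKM, mostly the interferon-induced Bst2. Of the 4 tested, Zbtb46 was higher (0.80, adjusted p = 0.0039) and Ccr9 lower (-0.45, adjusted p = 0.031), Ccr9 not without Dusp2KO replicate 1 (0.072), while Flt3 and Xcr1 were at most 0.0159 FPKM. The part of these cells in the results was not tested. The summed level of the 5 B cell and plasma cell markers in the table was 151 and 155 FPKM in Dusp2KO and 127 and 144 in WT, most of it Ighm (110 to 131 FPKM). Cd79b, a partner of the B cell receptor, was higher in Dusp2KO, at 22.4 and 24.5 FPKM against 12.2 and 9.88 (log2 difference 1.03, adjusted p = 0.0024), and its part in other results was not tested. Xist, the RNA of the inactive X chromosome, stood at 15.1 and 15.5 FPKM in the Dusp2KO libraries and at 0.00641 and 0.00492 in WT. The Y-linked Ddx3y was present in all 4, at 10.5 and 10.3 FPKM in Dusp2KO and 13.6 and 10.6 in WT. Both Dusp2KO libraries thus held Xist and Y-linked RNA together, the WT libraries held Y-linked RNA with Xist near 0, and genotype and sex composition cannot be told apart in the comparison.

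Of 18122 rows, the 9728 that averaged 1 FPKM or more across these 4 libraries were tested on log2(FPKM + 1) with limma. At a Benjamini-Hochberg adjusted p under 0.05, 2584 genes were called, 26.6% of those tested. Of these, 1272 (13.1% of all tested) were higher in Dusp2KO and 1312 (13.5%) were lower. Rescaling each library to the same FPKM total shifted the split to 1310 higher and 875 lower. The differences were mostly small, and 96 genes (0.987%) were called with a 2-fold or larger difference. Calls depended on single libraries. Without Dusp2KO replicate 1 or 2, 1184 and 1050 genes were called, and without WT replicate 1 or 2, 4113 and 3119. Of the 2584 calls, 1127 and 1004 held in the same direction without each Dusp2KO library. Differences below are Dusp2KO minus WT on the log2(FPKM + 1) scale, with the standard error (SE) of the fit, and n = 2 libraries per group. This scale understates the change of genes with low values. RNA was pooled over cells, so fewer cells with a transcript and less transcript per cell cannot be told apart.

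Secreted cytokines were higher. Of 19 tested cytokine genes, 9 rose (47.4% against 13.1% over all genes tested) and 1 fell (5.26% against 13.5%). Their median difference was 0.19 against -0.02 over all genes tested. Ifng, which encodes the main macrophage-activating cytokine of CD8+ T cells, stood at 571 and 601 FPKM in Dusp2KO and at 217 and 186 in WT. It rose by 1.54 (SE 0.10, adjusted p = 0.0008), with every Dusp2KO value more than double every WT value. Il2, a T cell growth factor, was at 6.23 and 8.15 FPKM against 1.51 and 1.77 (1.62, SE 0.13, adjusted p = 0.0013). Il3, a growth factor of blood progenitors, was at 9.43 and 9.56 against 3.36 and 2.72 FPKM, a rise of 1.38. Lta, or lymphotoxin alpha, was at 33.4 and 37.2 against 14.8 and 12.6 FPKM, a rise of 1.30. The naming rule required groups that do not overlap for Ifng, Il3 and Lta, so this adds nothing to their calls. Lif, a cytokine of the IL-6 family, rose by 0.93 from 8.19 and 6.55 FPKM in WT to 15.8 and 14.1. Csf2, or GM-CSF, was at 7.85 and 7.80 FPKM in Dusp2KO and 5.43 and 4.3 in WT (0.60, adjusted p = 0.011). Smaller rises were called for Tnf (0.47, adjusted p = 0.023), Tgfb1 (0.40, adjusted p = 0.0084) and Tnfsf14, or LIGHT (0.40, adjusted p = 0.0097). Each of these 3 missed the threshold without one Dusp2KO library, Tnf without replicate 2 (adjusted p = 0.078), Tgfb1 and Tnfsf14 without replicate 1 (0.058 and 0.06). Il16, a chemoattractant made from a constitutive precursor, fell by 0.57, from 5.84 and 6.56 FPKM to 3.75 and 3.93. No call was made for Ltb, Csf1, Osm, Tnfsf8, Tnfsf9, Tnfsf10, Tnfsf11, Fasl and Mif, whose differences lay between -0.33 (Mif, adjusted p = 0.053) and 0.19 (Osm). The other 13 listed cytokines, among them Il4, Il10, Il17a and Il21, were below the filter. Leaving out each library in turn gave 7 to 11 rises and 1 to 4 falls, with 4 falls without WT replicate 2.

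Chemokines of the inflammatory cluster on chromosome 11 moved with them. Ccl3 and Ccl4 encode inflammatory chemokines that attract T cells and myeloid cells. Ccl3 stood at 279 and 289 FPKM in Dusp2KO and at 98.5 and 92.2 in WT (1.56, SE 0.07, adjusted p = 0.00021). Ccl4 stood at 691 and 741 against 313 and 288 FPKM (1.25, SE 0.09, adjusted p = 0.00096). Both genes were more than 2-fold apart with little spread inside either group. Ccl9 rose by 0.89 and Ccl1 by 0.63, Ccl9 from 24.2 and 20.7 FPKM to 40.9 and 43.7, and Ccl1 from 20.5 and 17.2 to 28.3 and 30.9. Ccl5 was higher by 0.39 (adjusted p = 0.041), a call not made without Dusp2KO replicate 2 (adjusted p = 0.23) or WT replicate 1 (0.067). Cxcl10, an interferon-induced chemokine on chromosome 5, was lower by 0.30 (adjusted p = 0.031), and not called without Dusp2KO replicate 1 (0.2) or 2 (0.16). Xcl1, which attracts cross-presenting dendritic cells, gave -0.19 (adjusted p = 0.25). In all, 5 of 7 tested chemokines rose and 1 fell, with a median of 0.63, and 8 listed chemokines were below the filter. The shares were 71.4% and 14.3%, against 13.1% and 13.5% over all genes.

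**Figure D1:**
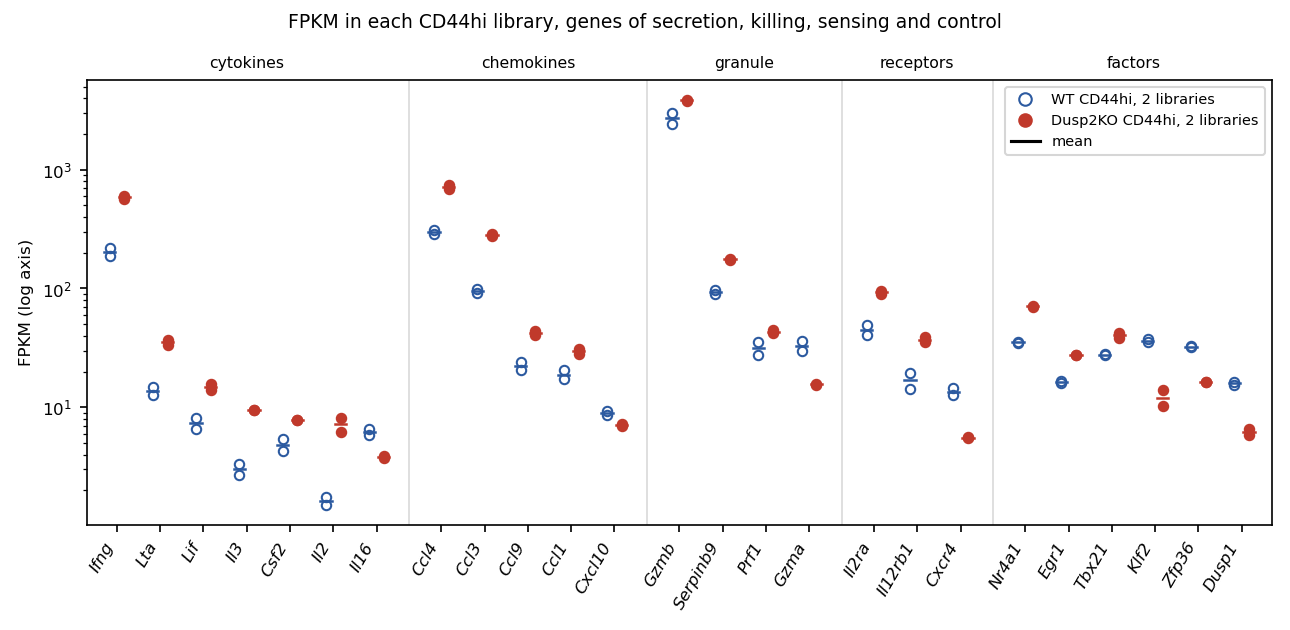
FPKM on a log axis of 25 genes in the 4 CD44hi libraries, open blue circles for WT, filled red circles for Dusp2KO and short lines for the mean of each pair. The cytokines shown other than Il16, and the chemokines shown other than Cxcl10, sit higher in Dusp2KO, while Gzma, Cxcr4, Klf2, Zfp36 and Dusp1 sit lower.

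Granule genes split. Of 21 tested genes of cytotoxic granules, 6 rose and 7 fell, 28.6% and 33.3% against 13.1% and 13.5% over all genes. Serpinb9, an inhibitor of granzyme B that protects the killer cell, stood at 174 and 178 FPKM in Dusp2KO against 96.9 and 89.7 in WT (0.91, SE 0.07). Serpinb6b rose by 0.77 and Rab27a, which docks granules at the membrane, by 0.57, both called in every fit that left out a library. Gzma, granzyme A, went the other way, from 36.0 and 30.1 FPKM in WT to 15.4 and 15.8 (-1.03, SE 0.09, adjusted p = 0.0017), and Gzmc, on chromosome 14, fell by 0.54. Gzmb, granzyme B, was the most abundant of them, at 3812 and 3860 FPKM in Dusp2KO and 2966 and 2419 in WT. Its difference of 0.52 missed the threshold (adjusted p = 0.056), and passed it without WT replicate 1 (0.00078) or 2 (0.0048). Between 4 and 8 rises and 2 and 8 falls were called when a library was left out, with 2 falls without Dusp2KO replicate 2 and 3 without replicate 1.

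Of 32 cytokine receptor and JAK-STAT genes, 5 rose and 4 fell, 15.6% and 12.5%, near the shares over all genes. Il2ra, or CD25, which raises the affinity for IL-2, stood at 90.0 and 95.1 FPKM in Dusp2KO and 48.9 and 41.0 in WT (1.03, SE 0.09, adjusted p = 0.0017). Il12rb1, a chain of the IL-12 receptor, stood at 38.8 and 35.6 against 19.4 and 14.3 FPKM (1.11, SE 0.13, adjusted p = 0.0038), and its partner Il12rb2 rose by 0.53. Ifnar1, a chain of the type I interferon receptor, fell by 0.40 and Cish, a STAT5-induced inhibitor, by 0.41. For the IL-15 receptor chain Il2rb, a marker of virtual memory cells, the difference was -0.05 (adjusted p = 0.74). Among 20 costimulatory genes 6 rose and 4 fell, 30% and 20% against 13.1% and 13.5% over all genes. Cd82, a tetraspanin, rose by 0.92, Cd83 by 0.68, Tnfrsf4, or OX40, by 0.65 and Tnfrsf18, or GITR, by 0.51. Falls in this list numbered 2 and 1 without Dusp2KO replicates 1 and 2, and 8 without WT replicate 2. Of 13 inhibitory receptors none rose and 4 fell, including Ctla4 by 0.86 (7.21 and 6.11 FPKM in WT, 3.61 and 2.82 in Dusp2KO), Nt5e, or CD73, by 0.87 and Tigit by 0.48. Pdcd1, which encodes PD-1, gave 0.04 (adjusted p = 0.8). Without WT replicate 2, 8 inhibitory receptors and 11 cytokine receptor genes were called lower.

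Among 24 homing genes, 5 rose and 6 fell, 20.8% and 25% against 13.1% and 13.5% over all genes. The fibronectin and VCAM-1 receptor pair Itga4 and Itgb1 rose by 0.75 and 0.70, with Itgb1 at 80.9 and 78.6 FPKM against 55.2 and 42.7. Of the chemokine receptors, Cxcr4 went from 14.6 and 12.6 FPKM in WT to 5.65 and 5.49 (-1.15, SE 0.09, adjusted p = 0.0011), and Cxcr6 fell by 0.68. S1pr4, a receptor for sphingosine phosphate, fell by 0.43. With WT replicate 2 left out, 14 of the 24 were called lower, and with either Dusp2KO library left out 2 were called higher. Of 20 NK receptor and virtual memory marker genes, 5 rose and 5 fell, 25% each against 13.1% and 13.5% over all genes. Klrd1, or CD94, fell by 0.98 (49.3 and 42.0 FPKM in WT, 22.1 and 23 in Dusp2KO), and its partner Klrc1, or NKG2A, by 0.45. Ly6a, or Sca-1, rose by 0.57 and Cd24a by 0.90. Eomes, a T-box factor typical of virtual memory cells, gave 0.01 (adjusted p = 0.93).

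Of 53 tested genes of T cell receptor signalling 5 rose and 14 fell, with 34 not called and a median of -0.13. The shares were 9.43% and 26.4%, against 13.1% and 13.5% over all genes. The CD3 chain gene Cd3e stood at 51.7 and 53.5 FPKM in Dusp2KO and 88.6 and 76.9 in WT (-0.64, SE 0.08, adjusted p = 0.0045). The kinase gene Zap70 fell by 0.49, from 122 and 121 FPKM to 88.5 and 84.5, the phospholipase gene Plcg1 by 0.48, Bcl10 by 0.40 and Prkcq by 0.39. Themis, an adaptor of the receptor, rose by 0.69 and the paracaspase gene Malt1 by 0.57. Falls were between 6 and 7 without a Dusp2KO library (replicates 1 and 2), and 18 and 23 without a WT library.

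The MAP kinase genes Mapk3 and Mapk14 differed little, while Mapk6 was among the called genes of the cascade list. Mapk3, which encodes ERK1, gave 0.08 (adjusted p = 0.63). Mapk14, or p38 alpha, was lower by 0.25 (adjusted p = 0.035), but not called without Dusp2KO replicate 1 (0.19) or 2 (0.21). Over the 41 tested genes of the MAP kinase cascade 4 rose and 6 fell, 9.76% and 14.6%, near the shares over all genes. Without Dusp2KO replicate 1 there was 1 rise and 2 falls, and without replicate 2 there was 1 of each. Map3k14, the NF-κB-inducing kinase gene, fell by 0.58 and kept its call without any one library. The other brakes on the cascade were called in both directions. Of 20 tested MAP kinase phosphatase and ERK feedback genes, not counting Dusp2, 4 rose and 5 fell. The shares were 20% and 25%, against 13.1% and 13.5% over all genes. Dusp1, a nuclear phosphatase of p38 and JNK, stood at 5.87 and 6.61 FPKM in Dusp2KO and 16.3 and 15.5 in WT (-1.22, SE 0.08, adjusted p = 0.0008). Dusp10, of the same substrate class, stood at 46.0 and 45.7 against 71.9 and 74.2 FPKM (-0.66, SE 0.06, adjusted p = 0.0017). These were the members whose call survived every omission of a library. Spry2, on chromosome 14 (-0.46), Spry1 (-0.35) and Dusp6 (-0.27) were lower. Rasa2 (0.44), Ptpn7 (0.35), Dusp7 (0.34) and Spred2 (0.33) were higher. But the 4 rises, Spry1 and Dusp6 were not called without either Dusp2KO library, nor Spry2 without replicate 1. Without Dusp2KO replicate 1 or 2, 2 and 3 falls remained in this list. No call was made for Dusp4 (-0.31, adjusted p = 0.096), Dusp5 (0.13), Dusp14 (-0.05), Dusp16 (0.09), Dusp22 (-0.23), Spred1 (-0.04), Rasa1 (-0.06), Rasa3 (-0.06), Rasal3 (-0.12), Ppm1a (-0.22) or Ppm1b (0.03).

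Inducible transcription factors also divided, with 35.3% higher and 20.6% lower, against 13.1% and 13.5% over all genes. Of 34 tested, 12 rose and 7 fell, and 8 rose without Dusp2KO replicate 1. Nr4a1 and Nr4a3, orphan nuclear receptors induced by antigen receptor signals, stood at 71.4 and 70.2, and 57.6 and 56.0 FPKM in Dusp2KO, against 35.6 and 35.0, and 29.5 and 28.2 in WT. Their rises were 0.98 (SE 0.06, adjusted p = 0.00077) and 0.95 (SE 0.06, adjusted p = 0.0008). Egr1, an ERK-induced zinc finger factor, rose by 0.72, from 15.9 and 16.7 FPKM to 27.7 and 27.4, and Egr3, which lies on chromosome 14, by 1.10. Batf3, at 0.878 and 0.895 FPKM in WT and 3.97 and 4.37 in Dusp2KO, rose by 1.45. The AP-1 gene Jun fell by 0.57, while Fos (0.15, adjusted p = 0.34) and Junb (0.10, adjusted p = 0.42) were not called. Zfp36, whose product destabilises cytokine mRNAs, fell by 0.95, from 31.9 and 32.7 FPKM to 16.2 and 16.3 (SE 0.06, adjusted p = 0.0008). Its relative Zfp36l1 fell by 0.58.

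Of 25 tested genes of the NF-κB pathway 6 rose and 8 fell, and 3 rises were called without either Dusp2KO library. Tnfaip3, or A20, which limits the pathway, stood at 23.2 and 22.5 FPKM in Dusp2KO and 45.1 and 40.4 in WT (-0.87, SE 0.07, adjusted p = 0.0014). Nfkbia, the inhibitor IκBα, stood at 70.7 and 67.2 against 107 and 107 FPKM (-0.62, SE 0.06), and Tnip1 fell by 0.54. Nfkbid rose by 0.65, and the subunit genes Nfkb2 and Rel by 0.46 and 0.43. Over the list, 24% rose and 32% fell, against 13.1% and 13.5% over all genes.

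Factors and restraints of resting and memory T cells fell. Klf2, which maintains quiescence and the exit receptors of naive cells, stood at 14 and 10.2 FPKM in Dusp2KO and 35.1 and 37.4 in WT (-1.52, SE 0.14, adjusted p = 0.0016). Of 32 tested memory and differentiation factors, 2 rose and 12 fell (median -0.17). The shares were 6.25% and 37.5%, against 13.1% and 13.5% over all genes. Id3 and Myb, both tied to memory precursors, fell by 0.70 and 0.69, and Ets1 by 0.47. Tbx21, or T-bet, which drives Ifng, rose by 0.52, from 27.9 and 27.6 FPKM to 42.4 and 38.2. Without the Dusp2KO replicates 1 and 2, 4 and 5 falls were called.

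Of 32 tested genes of quiescence and growth restraint, none rose and 21 fell, with a median of -0.44. Among the 37 lists, chosen with earlier results known, this list had the highest share of falls, 65.6% against 13.5% over all genes. Arrdc3, an arrestin-like brake on glucose uptake, stood at 2.11 and 2.62 FPKM in Dusp2KO and 8.36 and 7.25 in WT (-1.39). Mxd4, a MYC antagonist, stood at 2.91 and 2.93 against 7.54 and 7.87 FPKM (-1.15, SE 0.08, adjusted p = 0.00084). Itm2a, a membrane protein of the T lineage, fell by 1.38, from 253 and 200 FPKM to 84.3 and 87.6. Tsc22d3, or GILZ, fell by 0.99, Pik3ip1, an inhibitor of PI3 kinase, by 0.91, Slfn1 by 0.77, Btg1 by 0.70 and the CDK inhibitor gene Cdkn1b by 0.64. With a library left out, 15 to 22 falls were called.

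**Figure D2:**
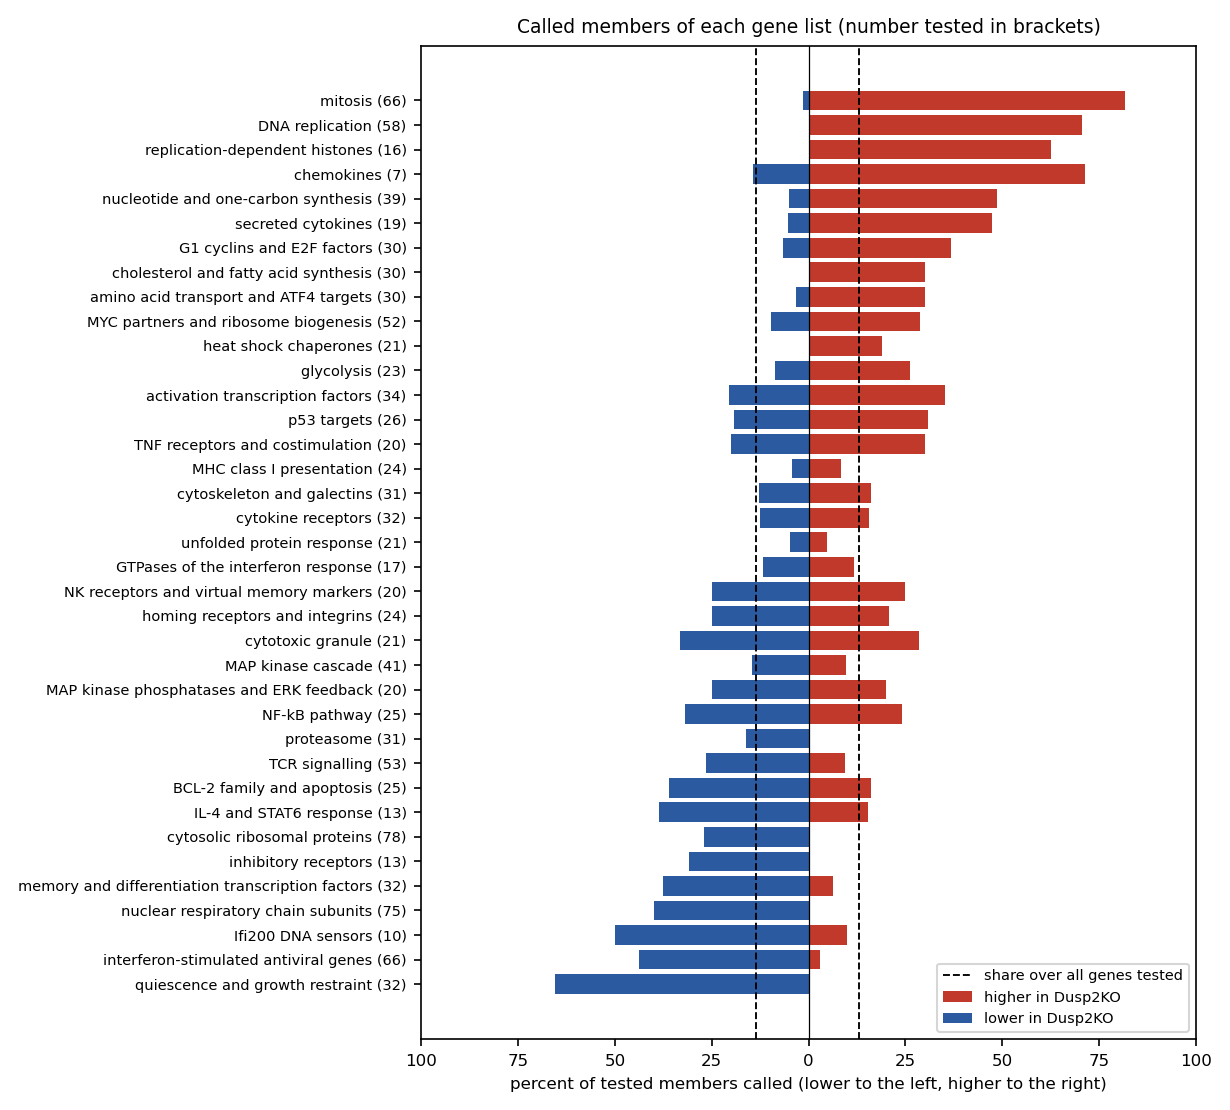
Percent of the tested members of each of 37 gene lists that were called, higher in Dusp2KO to the right in red and lower to the left in blue, with the number tested in brackets. The dashed lines mark the shares over all genes tested, 13.1% higher and 13.5% lower, and mitosis reaches farthest to the right, ahead of chemokines and DNA replication, while quiescence and growth restraint reach farthest to the left.

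Genes of the interferon response were lower although IFN-α was in every culture. Of 66 tested antiviral genes 2 rose and 29 fell, with a median of -0.27. The shares were 3.03% and 43.9%, against 13.1% and 13.5% over all genes. Oasl1 stood at 7.74 and 6.95 FPKM in Dusp2KO and 14.1 and 14.6 in WT (-0.88, SE 0.08, adjusted p = 0.0016). Factors that carry the signal were among the falls: Stat2 by 0.52 (13.8 and 13.3 against 20.8 and 19 FPKM), Irf9, on chromosome 14, by 0.55 and Irf7 by 0.67. Ifi27l2a, the most abundant of the called members, stood at 369 and 397 against 579 and 714 FPKM (-0.75), and Rtp4 fell by 0.70. Ifit3, an RNA-binding effector, stood at 20.1 and 19.8 against 28.5 and 31.8 FPKM (-0.57). Isg15 (-0.22, adjusted p = 0.1) and Bst2 (-0.08) were not called. The fits without Dusp2KO replicates 1 and 2 gave 17 and 19 falls, and those without WT replicates 1 and 2 gave 35 and 32.

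IFN-γ also induces GTPases and the genes of MHC class I presentation. Of 17 interferon-inducible GTPases 2 rose, led by Iigp1 (0.58), and 2 fell, 11.8% each and near the shares over all genes. Of 24 genes of MHC class I presentation 2 rose and 1 fell (8.33% and 4.17%), with H2-K1 at 0.04 (adjusted p = 0.83). With a library left out, the GTPases had 1 to 3 rises and 1 to 4 falls. MHC class I genes had 8 rises without WT replicate 1 and 4 without WT replicate 2, with 2 and 6 falls. The Ifi200 family on chromosome 1 encodes related nucleic acid sensors whose near-identical copies can share reads. Of 10 tested members 1 rose and 5 fell, 10% and 50% against 13.1% and 13.5% over all genes. Ifi208 stood at 1.02 and 0.780 FPKM in Dusp2KO and 14.2 and 16.5 in WT (-3.10, SE 0.11, adjusted p = 6.2e-05), far from the rest of the family. Ifi213 (-0.63), Ifi209 (-0.55), Ifi206 (-0.47) and Ifi214 (-0.42) fell, Ifi211 rose by 0.79, and Ifi203 (0.11), Ifi204 (0.11), Mndal (0.13) and Aim2 (0.28, adjusted p = 0.052) were not called. Ifi214 was not called without either Dusp2KO library.

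Type I interferon acts through the interferon-stimulated response element, so the 250 bases before the start of each gene were searched on both strands for its core (GAAA, any 2 bases, GAAA), in RefSeq promoters of build GRCm38.p6. A promoter was in the RefSeq table for 50 of the 66 antiviral genes, and 19 of the 50 (38.0%) held the core, against 3.46% of all 27025 genes with a promoter and 3.49% of the 7614 tested ones. The core was in 6 of the 21 called members and in 13 of the 29 that were not called. The promoters of 3 genes that fell are printed because they show the element singly and in pairs, and were picked after their values were seen. Ifit3 (chr19:34583279-34583528) and Ifit1 (chr19:34640639-34640888) lie on the plus strand with 2 matches each, and Stat2 (chr10:128270248-128270497), also plus, has 1. Ifit1 was lower by 0.34 (adjusted p = 0.015), a call not made without either Dusp2KO library. Capitals mark the core, which no other match overlapped.
Ifit3: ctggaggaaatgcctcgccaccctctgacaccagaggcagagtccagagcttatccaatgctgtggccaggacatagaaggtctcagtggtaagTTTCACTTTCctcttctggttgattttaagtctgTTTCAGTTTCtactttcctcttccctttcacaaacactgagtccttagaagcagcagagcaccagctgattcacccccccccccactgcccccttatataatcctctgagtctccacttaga
Ifit1: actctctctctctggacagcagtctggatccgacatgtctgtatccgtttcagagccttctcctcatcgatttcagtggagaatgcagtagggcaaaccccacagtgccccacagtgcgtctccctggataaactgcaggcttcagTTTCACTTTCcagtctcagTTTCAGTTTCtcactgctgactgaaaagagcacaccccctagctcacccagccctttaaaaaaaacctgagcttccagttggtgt
Stat2: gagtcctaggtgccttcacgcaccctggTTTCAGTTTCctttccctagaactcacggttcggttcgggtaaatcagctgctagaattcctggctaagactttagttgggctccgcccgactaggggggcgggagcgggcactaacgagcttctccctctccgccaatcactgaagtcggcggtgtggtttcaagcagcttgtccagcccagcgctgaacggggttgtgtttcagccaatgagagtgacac

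Among the 37 lists, chosen with earlier results known, mitosis genes had the highest share of rises, 81.8% against 13.1% over all genes. Of 66 tested 54 rose, with a median of 0.53. The one called lower, Cenpa (-0.41, adjusted p = 0.022), which encodes the centromeric histone, was not called without Dusp2KO replicate 1 (0.12) or 2 (0.096). Mki67, the proliferation marker Ki-67, stood at 13.7 and 13.3 FPKM in Dusp2KO and 5.66 and 3.84 in WT (1.35, adjusted p = 0.0028). Top2a, the topoisomerase that untangles chromosomes, stood at 35.5 and 37.2 against 18.9 and 17.4 FPKM (0.97, SE 0.07, adjusted p = 0.00096). Kif11, a spindle motor, stood at 8.11 and 7.92 against 3.89 and 3.80 FPKM (0.90). The condensin genes Ncapg and Ncapg2 rose by 1.10 and 1.01, the regulator Mybl2 by 0.91, Ccna2 by 0.77 and Cdk1 by 0.59. Among the 11 members not called were Plk1 (0.08, adjusted p = 0.44), Aurka (0.03), Ccnb2 (-0.02) and Cdc20 (-0.18, adjusted p = 0.15). Without either Dusp2KO library 41 rises were called, and without either WT library 55.

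Of 58 tested genes of DNA replication 41 rose and none fell (median 0.38). The shares were 70.7% and 0%, against 13.1% and 13.5% over all genes. Clspn, a checkpoint mediator at forks, stood at 9.05 and 8.77 FPKM against 4.21 and 3.78 (0.99), and Cdc6, which loads the replicative helicase, at 17.5 and 19.1 against 10.1 and 8.56 (0.91). Exo1 rose by 0.87, Mcm10 by 0.84 and Uhrf1, which guides maintenance methylation, by 0.72. The fits without Dusp2KO replicates 1 and 2 gave 26 and 25 rises. Rrm2, the small subunit of ribonucleotide reductase, had the largest rise of this group, at 59.9 and 58.9 FPKM against 20.5 and 19.9 (1.51, SE 0.06, adjusted p = 0.00012). Tyms, the thymidylate synthase gene, rose by 0.66. Of 39 tested genes of nucleotide and one-carbon synthesis 19 rose and 2 fell, and 8 and 7 rose without Dusp2KO replicates 1 and 2. Of 16 replication-dependent histone genes, whose near-identical copies can share reads, 10 rose, led by H3c3 (0.97), and none fell. Shares higher and lower were 48.7% and 5.13% for nucleotide synthesis and 62.5% and 0% for histones, against 13.1% and 13.5% over all genes.

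At the entry to S phase, 11 of 30 tested G1 and E2F genes rose and 2 fell. Shares higher and lower were 36.7% and 6.67% for this list and 30.8% and 19.2% for p53 targets, against 13.1% and 13.5% over all genes. Ccnd2, a D cyclin of T cells, stood at 86.5 and 87.6 FPKM in Dusp2KO and 44.6 and 41.6 in WT (1.00, SE 0.07, adjusted p = 0.0008), and Ccne2 rose by 0.97 and E2f3 by 0.96. Cdkn1a, or p21, a CDK inhibitor and p53 target, also rose, from 2.03 and 1.45 FPKM to 5.57 and 5.20 (1.23, SE 0.12, adjusted p = 0.0022). Of 26 tested p53 targets 8 rose and 5 fell, with Plk2 higher by 0.75 and Trp53inp1 lower by 0.99, and 5 rose without Dusp2KO replicate 1.

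Promoters of mitotic genes are known for CCAAT boxes and for the CHR element TTTGAA, and both were searched on both strands of the same window. CCAAT was present for 36 of the 54 mitosis genes with a promoter in the table (66.7%), against 37.5% of all genes and 41.1% of the tested ones. TTTGAA was present for 22 of the 54 (40.7%), against 18.3% of all and 12.6% of the tested genes. Of the 43 called mitosis genes 27 held CCAAT and 17 TTTGAA, and of the 11 not called 9 and 5 did. Of 43 replication genes with a promoter, 28 (65.1%) held CCAAT and 6 (14%) TTTGAA. Printed are 3 mitosis genes with both elements, Mki67 (chr7:135716380-135716629, minus strand), Top2a (chr11:99024190-99024439, minus) and Kif11 (chr19:37376132-37376381, plus), with every match on either strand in capitals, again picked after their values were seen. Mki67 had 3 CCAAT and 2 TTTGAA matches, Top2a 6 and 2, and Kif11 1 of each, at positions -45 and -19 from the start. No match overlapped another.
Mki67: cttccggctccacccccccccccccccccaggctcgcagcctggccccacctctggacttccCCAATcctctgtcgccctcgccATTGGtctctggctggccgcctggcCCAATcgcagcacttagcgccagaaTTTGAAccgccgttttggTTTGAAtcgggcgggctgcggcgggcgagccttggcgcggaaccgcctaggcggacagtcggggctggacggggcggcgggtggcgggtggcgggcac
Top2a: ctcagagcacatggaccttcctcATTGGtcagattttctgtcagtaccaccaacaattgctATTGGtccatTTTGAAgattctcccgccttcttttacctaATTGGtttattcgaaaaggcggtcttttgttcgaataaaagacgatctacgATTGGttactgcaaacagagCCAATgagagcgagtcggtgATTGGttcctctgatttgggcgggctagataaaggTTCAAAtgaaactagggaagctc
Kif11: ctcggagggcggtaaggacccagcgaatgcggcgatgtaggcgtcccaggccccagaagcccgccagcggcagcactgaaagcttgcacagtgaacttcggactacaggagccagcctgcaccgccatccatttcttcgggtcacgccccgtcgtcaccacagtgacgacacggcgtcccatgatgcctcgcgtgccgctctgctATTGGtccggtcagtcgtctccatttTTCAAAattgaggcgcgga

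**Figure D3:**
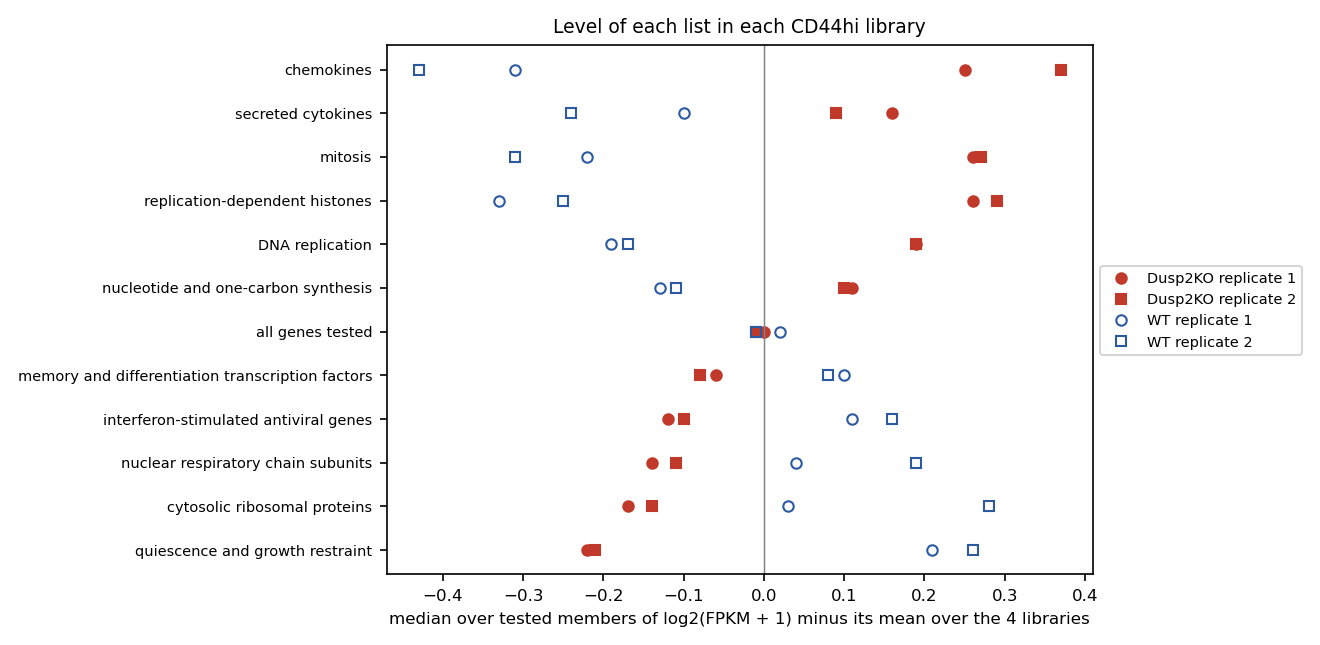
For 11 lists and all genes tested, the median over members of log2(FPKM + 1) minus the mean of the 4 libraries, with Dusp2KO in filled red and WT in open blue, circles for replicate 1 and squares for replicate 2. The Dusp2KO libraries lie on one side of 0 and the WT libraries on the other for each list shown, and the WT libraries are farthest apart for ribosomal proteins, at 0.03 and 0.28.

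Of 25 tested genes of the BCL-2 family and apoptosis, 4 rose and 9 fell, and 2 rose without Dusp2KO replicate 2. Bcl2l11, or BIM, a death-promoting member, stood at 23.7 and 24.2 FPKM in Dusp2KO and 52.5 and 49.0 in WT (-1.05, SE 0.06, adjusted p = 0.0008), and Bbc3, or PUMA, fell by 0.77. Among protective members Bcl2l1, or BCL-XL, rose by 0.65, from 39.9 and 41.6 FPKM to 66.3 and 63.1, while Bcl2 fell by 0.42. Over the list, 16% rose and 36% fell, against 13.1% and 13.5% over all genes.

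Ribosomal protein and nuclear respiratory chain genes were lower, and the WT pair was itself apart in them. Their list medians against the mean of the 4 libraries were 0.03 and 0.28, and 0.04 and 0.19, in WT replicates 1 and 2. In Dusp2KO they were -0.17 and -0.14, and -0.14 and -0.11. Shares called lower were 26.9% and 40%, against 13.5% over all genes. All 78 tested cytosolic ribosomal protein genes had a difference below 0, with a median of -0.31, and 21 were called lower. The calls rested on single libraries: 2 and 0 without Dusp2KO replicates 1 and 2, and 75 and 44 without WT replicates 1 and 2. Of 75 nuclear-encoded respiratory chain genes 30 were called lower and none higher (median -0.25), and these counts ranged from 9 without Dusp2KO replicate 1 to 58 without WT replicate 1. Both lists hold short genes, with median lengths of 1804 and 1702 bases against 4332 over all genes tested. With a smooth trend on gene length removed from each library, 14 ribosomal protein genes (median -0.24) and 17 respiratory chain genes (median -0.16) were called lower. The 13 mRNAs of the mitochondrial genome went the other way: 8 were called higher, such as ND5 at 1292 and 1388 FPKM against 830 and 842 (0.68, adjusted p = 0.0071), a call not made without Dusp2KO replicate 1 (0.073) or 2 (0.13). Mitochondrial transcripts made up 2.73% and 2.94% of reads in Dusp2KO and 2.15% and 2.03% in WT.

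In the list of IL-4 and STAT6 targets, 2 of 13 tested rose and 5 fell, among them Nfil3, a bZIP repressor, by 0.57, and 9 fell without WT replicate 2. Stat6 itself gave 0.07 (adjusted p = 0.43). The shares of the list were 15.4% higher and 38.5% lower, against 13.1% and 13.5% over all genes. Among cytoskeleton and galectin genes, the leukocyte myosin gene Myo1g was higher by 0.94, Coro2a by 0.50 and S100a11 lower by 0.59. Of 31 tested, 5 rose and 4 fell, 16.1% and 12.9%, near the shares over all genes. Without WT replicate 1, 9 of them were called lower.

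Among other metabolic lists, 15 of 52 ribosome biogenesis genes and MYC partners rose and 5 fell. Mga, a partner of MAX, rose by 0.77, and Myc itself gave 0.19 (adjusted p = 0.086). Of 30 lipid synthesis genes 9 rose and none fell. The desaturase gene Scd2 stood at 64.1 and 67.2 FPKM in Dusp2KO and 37.3 and 28.2 in WT (1.00, SE 0.12, adjusted p = 0.0042), and Elovl6 rose by 0.62. The cholesterol enzyme gene Hmgcs1 gave -0.01 (adjusted p = 0.87). Of 30 amino acid transport and ATF4 genes 9 rose and 1, Ddit3, fell (-1.03). In glycolysis 6 of 23 rose, with the lactate transporter Slc16a1 higher by 0.68 and Hk2 by 0.57, and 2 fell. Shares higher and lower were 28.8% and 9.62% for ribosome biogenesis and 30% and 0% for lipid synthesis. For amino acid transport they were 30% and 3.33%, for glycolysis 26.1% and 8.7% and for heat shock 19% and 0%. For the unfolded protein response they were 4.76% each. Over all genes they were 13.1% and 13.5%. Of 21 heat shock genes 4 rose and none fell, and of 21 unfolded protein response genes 1 rose and 1 fell, with 12 rises of the latter called without WT replicate 1. Each of these lists lost rises without a Dusp2KO library: ribosome biogenesis fell to 3 without either replicate, amino acid transport to 5 without either, lipid synthesis to 4 and 5, glycolysis to 2 and 3 and heat shock to 0 and 0.

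Of the 96 differences of 2-fold or more, 42 (43.8%, 95% Wilson interval 34.3 to 53.7) were on chromosome 14, which held 423 of the 9728 tested genes. T cell receptor segments made up 32 of the 42. The interval takes genes as independent draws, which neighbouring segments are not, and the share moved with the processing. Outside chromosome 14 and the receptor segments, 53 of 9266 tested genes passed, 29 higher and 24 lower. On chromosome 14, 10 of the 334 tested genes that are no receptor segment passed. Leaving out the receptor segments, 91 of 334 tested genes of chromosome 14 were called at any size (27.2%), against 26.3% outside it. Their median absolute difference was 0.18, against 0.17 over all genes tested. Genes of chromosome 14 and receptor segments may come with the strain of the mice, so they were counted apart. Strain is not given, so genotype and strain cannot be told apart in these genes, and this was not tested.

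Lgals3, which encodes galectin-3, led the falls on chromosome 14, at 3.42 and 2.90 FPKM in Dusp2KO and 56.3 and 60.2 in WT (-3.83, SE 0.08, adjusted p = 5.9e-06). Tmem254a fell by 1.79, from 23.1 and 23.8 FPKM to 5.71 and 6.49. Psmb5, a catalytic subunit of the proteasome, stood at 51.8 and 52.0 against 134 and 147 FPKM (-1.42, SE 0.07, adjusted p = 0.00031). It stood apart from the other 30 tested proteasome genes, of which none rose and 4 fell, among them Psmd4 by 0.30, none of the 4 called without either Dusp2KO library. Without WT replicate 1, 16 proteasome genes were called lower. Over all 31 tested proteasome genes, Psmb5 included, 16.1% fell, near the 13.5% over all genes. Lrp10 and Rgcc fell by 0.69 and 0.62. Among genes averaging 5 FPKM or more, the rises on this chromosome were led by the mitotic kinase gene Pbk (1.32, from 4.49 and 3.58 FPKM to 11.1 and 11.9) and Egr3, followed by Diaph3 (0.83), Supt16 (0.79) and Ktn1 (0.78). Ccnb1ip1, chosen after its values were seen, was at 8.31 and 9.39 FPKM in Dusp2KO and at 0.0122 and 0 in WT.

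Of 128 tested T cell receptor segments 27 were higher and 33 lower. The alpha variable segments differed most, with a median absolute difference of 0.95 over 58 segments, 21 of them higher and 23 lower, against 0.13 over 19 beta variable segments on chromosome 6, of which none was higher and 3 were lower. Trav12-2 stood at 0.166 and 0 FPKM in Dusp2KO and at 14.7 and 8.87 in WT, Trav16 at 1.09 and 1.67 against 14.1 and 10.0, and Trav13-1 at 3.25 and 4.57 against 9.17 and 9.33. Trav8d-1 was at 10.7 and 8.93 FPKM against 1.84 and 0.927, Trav16d-dv11 at 12.8 and 14.2 against 4.75 and 4, and Trav3-3 at 21.6 and 23.4 against 10.0 and 8.63. The alpha variable array holds duplicated blocks, whose copies carry d or n in their names. Of 18 tested copies with a hyphen after the d or n, 9 were higher and 4 lower (median 0.81). Of the other 40 segments 12 were higher and 19 lower (median -0.50), a split noticed after the values were seen. Those 40 include copies with no such hyphen, Trav10d (1.09) and Trav16n (0.76), both called higher, and Trav10n (0.13, not called). Reads from near-identical segments can be assigned to either copy, so single segments are uncertain.

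**Figure D4:**
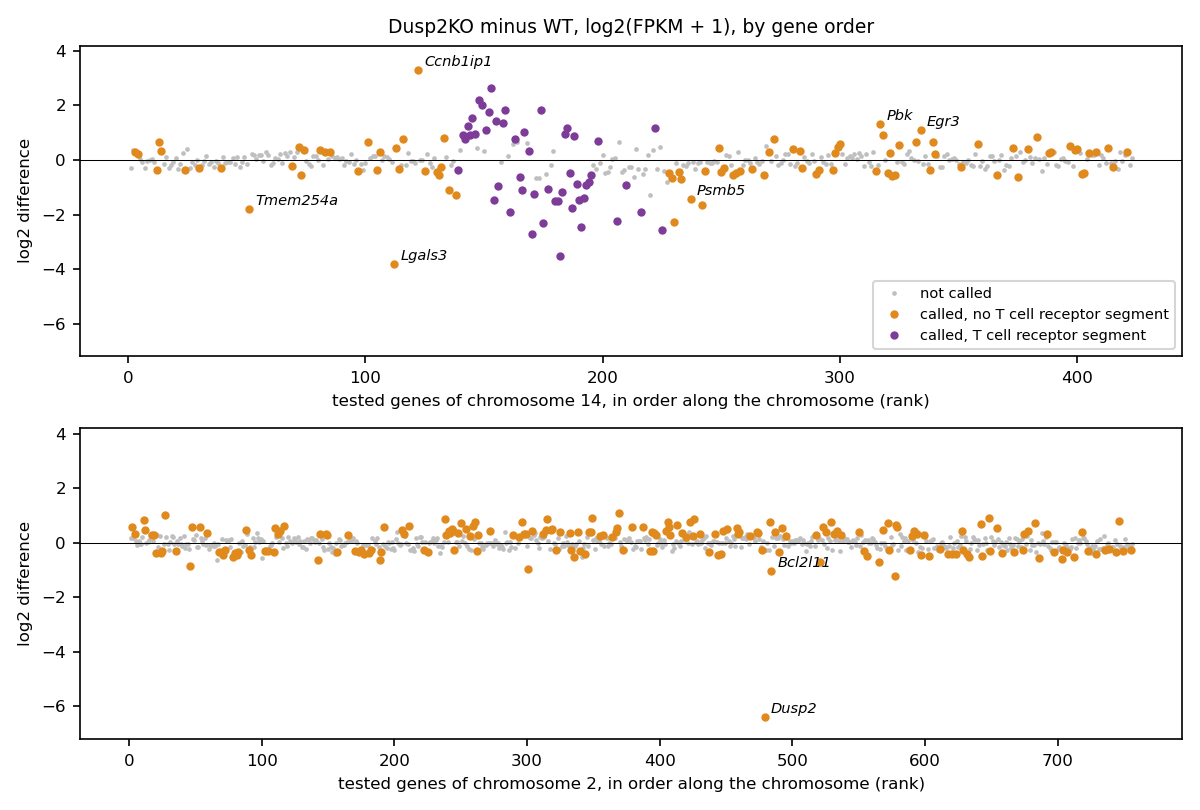
Difference of each tested gene by its rank along chromosome 14 (upper panel) and chromosome 2 (lower panel), with called genes in orange, called T cell receptor segments in purple and the rest in grey. The receptor segments fill one stretch of chromosome 14 in which both directions occur, and on chromosome 2 Dusp2 stands alone at -6.38.

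The deleted gene lies on chromosome 2, where 5 of 756 tested genes differed by 2-fold or more. Over all genes tested, 26.6% were called and the median absolute difference was 0.17. Near these values, of the 40 tested genes nearest to Dusp2, 20 on each side, 9 were called higher and 3 lower (30.0%). The median absolute difference of these 40 neighbours was 0.19. Bcl2l11, 5 tested genes away, was the one 2-fold difference among them.

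Away from these loci and the lists, the named rises were Niban1, at 17.1 and 16.7 FPKM against 6.67 and 6.46 (1.24), the zinc transporter gene Slc39a10, at 14 and 14.9 against 7.16 and 4.71 (1.18), and Tfrc, the transferrin receptor, at 125 and 132 against 72.3 and 51.1 (1.07). The named falls were Pink1, a kinase of mitophagy, at 11.1 and 9.28 against 22.6 and 26.3 FPKM (-1.18), Sgk1, a kinase induced by steroid and salt, at 3.07 and 3.56 against 9.31 and 7.36 (-1.11), Ypel3 (-1.08) and Tcp11l2 (-1.07). Groups that do not overlap were a condition for naming them. Gm3375, a predicted gene on chromosome 7 outside the naming rule, had the largest rise of all, at 146 and 142 FPKM against 1.79 and 1.07 (5.92). It was chosen after its values were seen.

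**Figure D5:**
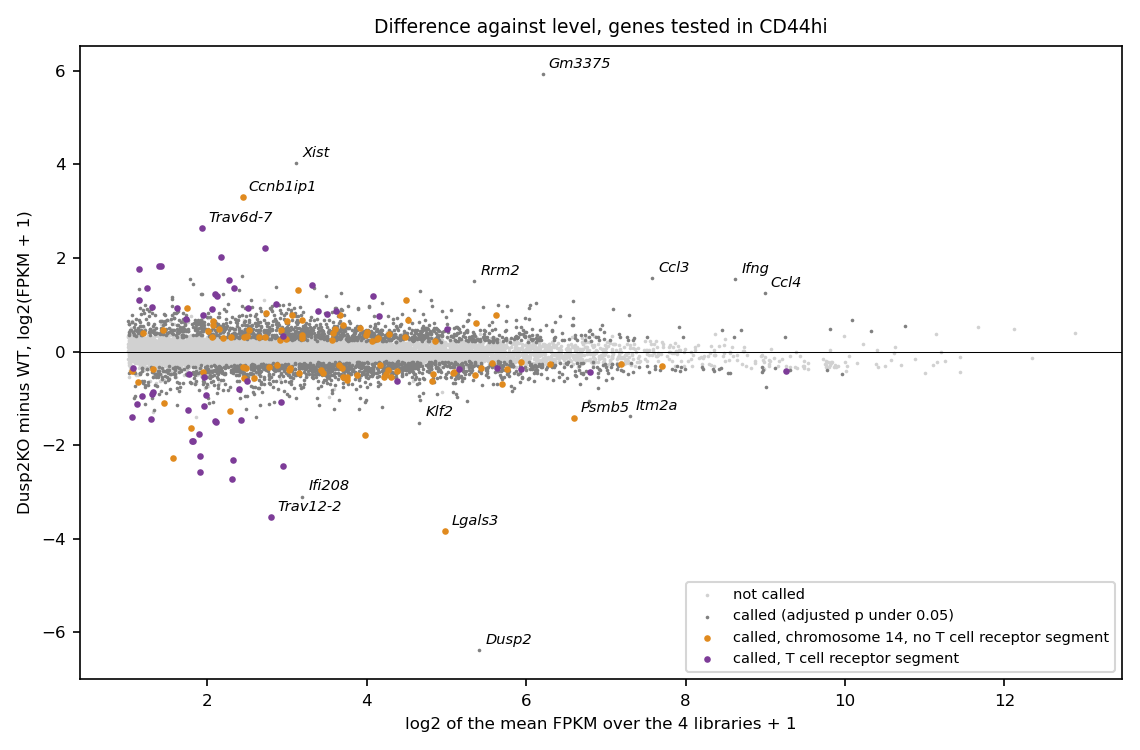
Difference between Dusp2KO and WT against the log2 of the mean level over the 4 libraries, 1 point per tested gene. Light grey points were not called, dark grey points were called, and called genes of chromosome 14 and T cell receptor segments are orange and purple, with Gm3375, Xist and Ccnb1ip1 at the top and Dusp2 and Lgals3 at the bottom.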

How the data were processed

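The 4 CD44hi libraries were measured by bulk RNA-seq. The authors deposited FPKM values. The aligner was HISAT2 2.0.5, per the submitters' processing notes, which list both mm39 and hg38 as builds with no stated use. Counter and annotation were not given in the sources used here. A few genes are not reported here. By the labels' protocols, RNA was extracted with Trizol and libraries followed Illumina protocols, and the descriptions also name 10X Genomics, although values are per library. A gene's FPKM step in units of 1 read, so reads could be recovered. All 16220 rows with values in at least 2 libraries gave whole reads (100%, tolerance 1e-06 reads), which gave depths and lengths. In a control, 32 of 2000 rows with values moved by up to 1% did too. No column was left unused (0).

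Genes averaging 1 FPKM or more across these 4 libraries were tested on log2(FPKM + 1) with limma 3.58.1 in R 4.3.3 (variance trend, two-sided, Benjamini-Hochberg adjustment at 0.05, 2 residual degrees of freedom). The fit was tested on simulated data. In a chi-square test on reads the replicates of each group differed beyond sampling noise. The 37 gene lists, the markers and the rule for named genes were chosen with earlier results of these data known. Named were the 12 largest rises and falls with a mean of at least 5 FPKM, groups that do not overlap and no predicted symbol, outside chromosome 14 and receptor segments, 5 each way on chromosome 14, 3 each way among segments, Dusp2, Rpa1, Cd44, at most 5 members of lowest p from each list, and all cytokine, chemokine, MAP kinase phosphatase and Ifi200 members. The text leaves out some of them, and other genes it names were chosen after their values were seen.

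Symbols were matched to a RefSeq table of GRCm38.p6 (18103 rows, 99.9%) for names, types, chromosomes and gene order only. Promoters come from RefSeq GRCm38.p6. Strandedness is not stated, so reads of overlapping genes on opposite strands cannot be told apart. Alternatives were other pseudocounts, filters, scalings and variance models, limma voom on the recovered read counts, a length trend taken out, a replicate block, each library left out, and fits without chromosome 14 and receptor segments or with all 6 libraries. Floors and intervals cover counting error only.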

Additional observations from a re-analysis of the deposited data

How the results depend on the processing

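Of the 208 named genes that were called, 147 kept the call in the same direction without a filter on low values, 167 without either Dusp2KO library, 207 without WT replicate 1 and 208 without WT replicate 2. None changed direction under any alternative. These genes were already called in the main fit, and many were picked by smallest p or by groups that do not overlap. A change of direction was therefore unlikely from the outset. Without a filter, 956 genes were called, 522 higher and 434 lower. Leaving out each library gave 1050 to 4113 calls, 541 to 2191 higher and 509 to 1922 lower. In those fits the lone library is assumed to vary like the other pair. The number of 2-fold differences, and the share of the 2-fold or larger calls on chromosome 14, moved with the low values: 219 and 24.7% with a pseudocount of 0.1, 151 and 33.8% with 0.5, 46 and 26.1% with a minimum mean of 5 FPKM, 185 and 28.1% after rescaling to a total of 1000000, 228 and 22.8% with limma voom on recovered reads, and 53 and 0% without chromosome 14 and receptor segments. The cause was not tested, except that the last setting takes those genes out. A replicate block gave 3264 calls, 1564 higher and 1700 lower, with 99 of 2-fold or more. The shared numbers are not stated to pair samples, and same-numbered deviations correlated at 0.040.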

Other observations

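Classes of RNA differed in how they were spread. Of 9197 tested protein-coding genes 1229 were higher in Dusp2KO and 1193 lower, with a median difference of -0.01. Of 116 long non-coding RNAs 5 were higher and 36 lower (median -0.19), and of 144 pseudogenes 5 were higher and 32 lower (median -0.19). Their median lengths were 2622 and 642 bases against 4496 for protein-coding genes. Over all tested genes Spearman's rho of the genotype difference with gene length was 0.27, and that of WT replicate 1 minus replicate 2 was 0.31. Both share the WT libraries and are descriptions across genes, which are not independent replicates. The same rho between the Dusp2KO replicates was 0.00. Of 4 tested nuclear-retained RNAs 2 were called lower in Dusp2KO, Neat1 (-0.72, adjusted p = 0.0094) and Snhg1 (-0.34, adjusted p = 0.035), Snhg1 not without either Dusp2KO library. The 6 of the list in the table summed to 92.8 and 93.9 FPKM in Dusp2KO and 141 and 103 in WT. Gas5 was not called (adjusted p = 0.2). Malat1 stood at 17.5 and 16.7 FPKM in Dusp2KO and at 39.2 and 18.3 in WT (adjusted p = 0.17), so WT replicate 1 stood apart from the other 3 libraries in it.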
